A study of Mus musculus with 3 samples.

Results

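CCGG sites in coding exons that lie beyond promoters were examined in 3 MethylRAD libraries of mouse embryonic stem cells (ESCs). A site was a member if all 4 bases of the motif lay in a coding segment of a protein-coding transcript, on an autosome, more than 3 kb from every annotated transcription start site (GENCODE M21 basic annotation, build GRCm38), and if at least 1 library listed it in the alignment class M of the deposited tables. The reference holds 55136 such motifs in 11928 genes. Of these, 49634 (90.02%) were listed in any library, in 11372 genes, and they made up 5.12% of the 969545 autosomal CCGG sites listed. A gene had a median of 3 listed sites, and 132 sites lay in the coding exons of 2 genes at once.

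All libraries came from E14Tg2A, a single wild-type ESC line derived from another inbred strain than the reference genome. The undifferentiated library was made at day 0 from cells kept with leukemia inhibitory factor (LIF). The untreated library was made at day 7, after LIF withdrawal and addition of retinoic acid, and the treated library at the same day from cells given the same induction with 3 mM pargyline, an inhibitor of the histone demethylase LSD1. Each condition had 1 library, so differences between libraries have no replicate check, condition and library cannot be told apart, and every interval below covers counting error only. PCR reads without molecular identifiers are not independent molecules. In bulk DNA, fewer cells with a methylated site and fewer methylated copies per cell cannot be told apart, and both day 7 libraries were compared with the same undifferentiated library.

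MethylRAD uses FspEI, an enzyme that cuts on both sides of a methylated CCGG and releases a short fragment, so reads at a site follow the number of methylated copies cut and recovered. The paper states that FspEI recognizes hydroxymethylated cytosine as well, so the reads do not separate these marks. A site enters a list at 5 reads or more, and an unlisted site can hold at most 4. Coding exons far from promoters belong to the gene body, which in mammals is methylated in most cell types, in contrast to CpG islands at start sites, which are mostly unmethylated. Coding sequence keeps CpGs within codons, such as those of arginine. In ESCs the methylation of gene bodies is maintained by DNMT1 and added by DNMT3A and DNMT3B, and it rises when the cells leave the naive state.

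The windows below show what these sites look like, each read on the coding strand of its gene with the CCGG motif in capitals, from GRCm38. The first 3 are shown because they were deep at 1 time and unlisted at the other, or carried the most reads. The site of Dync2h1, the heavy chain of the ciliary transport dynein, at chr9:7157905-7157934 was listed at day 0 only, and that of Glmn, the glomulin gene, at chr5:107575269-107575298 at day 7 only. The site of Sfi1, a centrin-binding protein gene, at chr11:3135671-3135700 was the deepest of all.
Dync2h1: caacgagaacctgCCGGagatcaacgtaga
Glmn: attgaagagccctCCGGaaaacagatttcc
Sfi1: gtacgaaggccttCCGGcagcagctccagg

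A further 5 genes, chosen after their values were seen, are shown by the site whose reads differed most between the undifferentiated and treated libraries (in Tbx2, 1 of the sites that tied at 22 reads). The windows of Dmrta2 (chr4:109981710-109981739), Tbx2 (chr11:85837366-85837395) and Jph2 (chr2:163339850-163339879) held 3 or 4 CpGs, and those of Rara (chr11:98970589-98970618) and Thra (chr11:98756970-98756999) held 1 and 2.
Dmrta2: cggactcaggtccCCGGacctcgtccccgg
Tbx2: ctctgcgcctacaCCGGgcccgaggtgagc
Jph2: tcccggagcggccCCGGgaaagcccgcagc
Rara: gccaagcagcttcCCGGcttcaccaccctc
Thra: ggggacaaggccaCCGGttatcactaccgc

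Coding exons beyond promoters were listed more often than introns or 3′ UTRs that also lay over 3 kb from start sites. In the undifferentiated library 78.3% of the coding motifs were listed (95% Wilson interval, 78.0 to 78.6), in the untreated library 81.4% (81.0 to 81.7) and in the treated library 80.1% (79.8 to 80.5). The shares were 67.5%, 67.2% and 66.7% for intron motifs, 74.4%, 75.8% and 76.0% for 3′ UTR motifs, and 50.9%, 50.6% and 50.8% for intergenic motifs. The distance between regions was smaller among motifs that a read can place. Reads were kept only when they mapped once, and 97.6% of the coding motifs had a 30-base window that occurs once among all CCGG windows of the reference. Among motifs with a unique window the coding shares were 80.2%, 83.2% and 82.0%, the intron shares 78.1%, 77.6% and 76.95%, and the intergenic shares 74.97%, 74.1% and 73.9%. The 1340 coding motifs with a repeated window were listed in any library at only 10.97%.

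**Figure D1:**
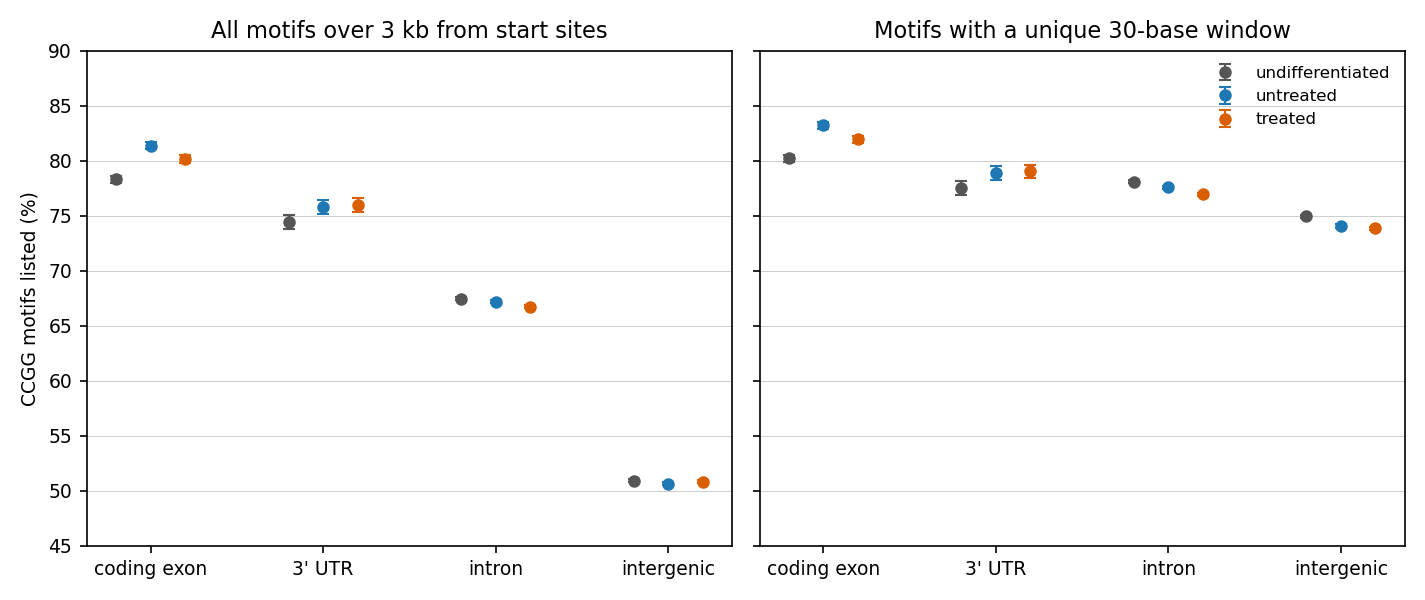
Percent of CCGG motifs over 3 kb from start sites that were listed in each library, by region, for all motifs (left) and motifs with a unique 30-base window (right). Points are libraries and bars are 95% Wilson intervals. Coding exons stand highest in every library, and the intergenic points rise from about 51% to about 74% once repeated windows are left out.

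Within single genes the same order held for most but not all. In 3410 genes with at least 5 unique coding motifs and 5 unique intron motifs beyond 3 kb, the coding share was the higher in 1932 genes and the intron share in 1413 in the undifferentiated library. The counts were 2172 against 1124 in the untreated and 2083 against 1215 in the treated library. The median difference between coding exons and introns of a gene was 3.34, 6.67 and 5.36 percentage points. Depth did not follow listing. The median log2 ratio of coding to intron depth per gene was -0.02, -0.06 and -0.07 in the 3 libraries.

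The order of the libraries depended on their CCGG totals. CCGG sites held 30873568 reads at day 0. At day 7 they held 35797196 reads without pargyline and 25143861 with it. When each was thinned at random to the smallest total, the listed share of coding motifs was 75.5%, 76.1% and 80.1%. At this matched CCGG total, the only measure of depth that was matched, the treated library listed the most coding motifs. It also listed the most intron motifs, at 66.7% against 65.2% and 63.1%, whereas the untreated library stood above the undifferentiated one in coding exons and below it in introns.

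Listed members carried a median of 29 reads in the undifferentiated library, 31 in the untreated and 23 in the treated one. The middle 50% of sites lay between 14 and 52, 14 and 60, and 12 and 40 reads. Members took 5.28%, 5.23% and 5.004% of the autosomal CCGG reads. Sites close to the limit were common, since 14.8%, 14.7% and 17.5% of the listed members had fewer than 10 reads. Across the 19 autosomes the listed share ranged from 75.6% on chromosome 7 to 82.2% on chromosome 13 in the undifferentiated library, and no autosome had a median outside 27 to 31 reads there.

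Most members were seen in all 3 libraries. This was so for 37989 sites, or 76.5% of members, against 72.5% of all listed autosomal sites. A further 3154 members (6.35%) were listed in both day 7 libraries only, and 1719 (3.46%) in the undifferentiated library only, compared with 6.37% and 5.20% of all sites. Those listed in both day 7 libraries only had a median of 10 reads in each, close to the limit. In 33.5% of them the motif was the window's only CpG, compared with 51.5% of the sites found in all 3 libraries. Another CCGG lay within 32 bp of 32.2% of them, compared with 12.1%.

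Motifs in internal exons were listed more often than those in last exons, in each library. A motif was called last when it fell in the last exon of any protein-coding transcript. For the 43428 internal motifs the shares were 80.1% (79.7 to 80.5), 82.8% (82.4 to 83.1) and 81.2% (80.8 to 81.6). For the 11620 motifs in last exons they were 71.5% (70.7 to 72.3), 76.3% (75.5 to 77.02) and 76.2% (75.4 to 76.99). Listed internal sites had medians of 30, 32 and 24 reads and last-exon sites 25, 26 and 20. The gap between the positions was 8.62 percentage points in the undifferentiated library, 6.51 in the untreated and 4.98 in the treated library. First exons and single-exon genes beyond 3 kb held only 63 and 25 motifs.

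Gene length ordered the listed shares in the same way. In genes under 30 kb 75.1%, 79.0% and 78.7% of the motifs were listed, in genes of 30 to 100 kb 79.7%, 82.4% and 80.8%, and in genes over 100 kb 81.0%, 83.4% and 81.3%. Last exons of short genes were the lowest class, at 69.0%, 73.4% and 74.5% of 6628 motifs, and last exons of genes over 100 kb reached 77.6%, 81.5% and 80.2%. Distance from the nearest start site gave a similar order in the undifferentiated library, from 73.4% between 3 and 5 kb to 80.4% between 30 and 100 kb. The members just inside the threshold, up to 500 bp past it, were listed at 71.4%, 75.6% and 75.9% of 2418 motifs, and the coding motifs within 500 bp on its other side at 68.6%, 74.8% and 76.9% of 2551.

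The differences between positions and between gene lengths were smaller where the motif was the only CpG of a unique window. For such motifs the shares in internal exons were 88.5%, 88.0% and 87.7%, and in last exons 85.9%, 86.8% and 87.2%. They were 88.1%, 87.9% and 88.0% in genes under 30 kb and 87.8%, 87.4% and 87.1% in genes over 100 kb.

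**Figure D2:**
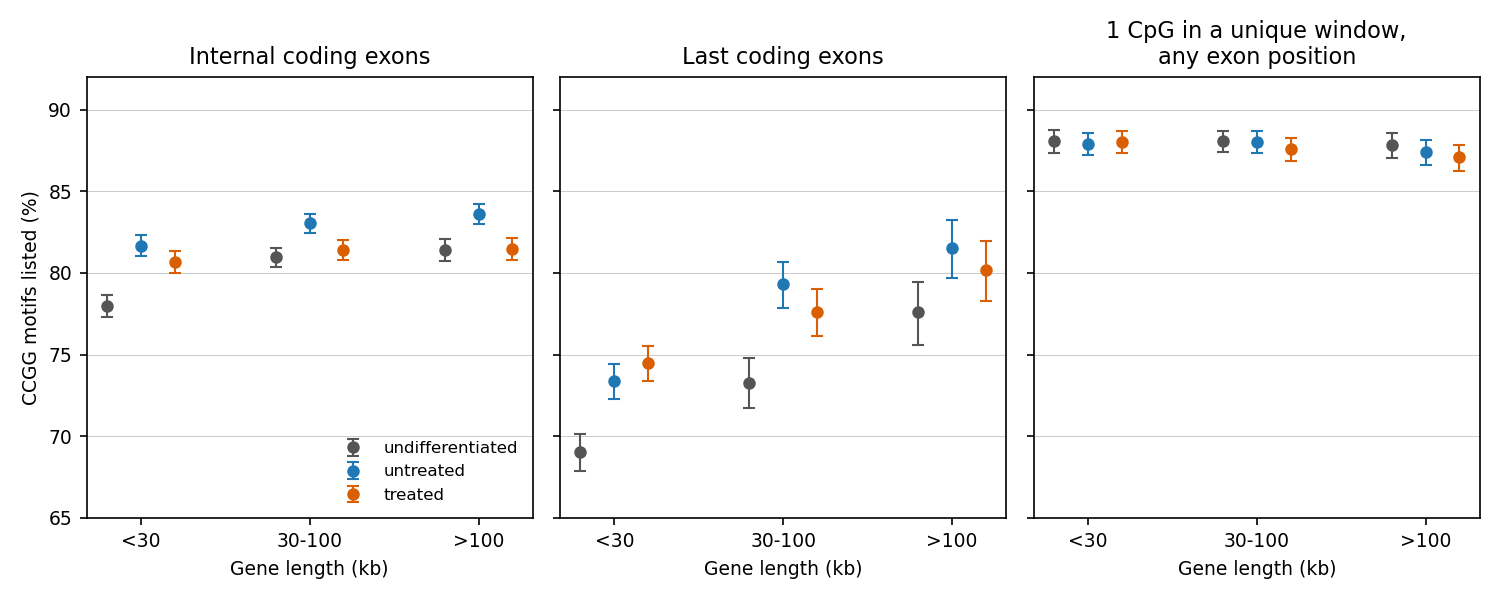
Percent of coding motifs listed in each library by gene length, for internal exons, last exons, and motifs that are the only CpG of a unique 30-base window. Bars are 95% Wilson intervals. Last exons of short genes stand lowest, at 69.0% in the undifferentiated library, and all points of the right panel lie between 87.1% and 88.1%.

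The listed share fell steeply with the number of CpGs in the 30-base window. With 1 CpG, that of the motif itself, 88.0%, 87.8% and 87.6% of 24756 unique motifs were listed. With 2 CpGs the shares were 79.4%, 83.4% and 81.0%, with 3 they were 69.8%, 78.1% and 75.3%, and with 4 they were 55.9%, 66.3% and 64.9%. With 5 CpGs, in 632 motifs, they fell to 35.6% (32.0 to 39.4), 46.2% (42.4 to 50.1) and 50.3% (46.4 to 54.2). With 6 or more, in 282 motifs, 11.7% (8.46 to 16.0), 22.3% (17.9 to 27.6) and 26.6% (21.8 to 32.0) were listed. The 3 libraries were alike where the motif was alone and moved apart as CpGs were added, with the undifferentiated library the lowest in every class from 2 CpGs upward.

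Depth per listed site fell along the same scale. Sites with 1 CpG had medians of 32, 37 and 28 reads, and sites with 4 CpGs 16, 17 and 13 reads. After thinning to the same CCGG total, 31.5%, 38.4% and 50.3% of the motifs with 5 CpGs were listed in the undifferentiated, untreated and treated libraries, and 85.7%, 83.7% and 87.6% of those with 1 CpG. Intron motifs showed the same scale, from 80.9%, 79.2% and 79.6% with 1 CpG to 25.7%, 33.2% and 36.0% with 5.

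**Figure D3:**
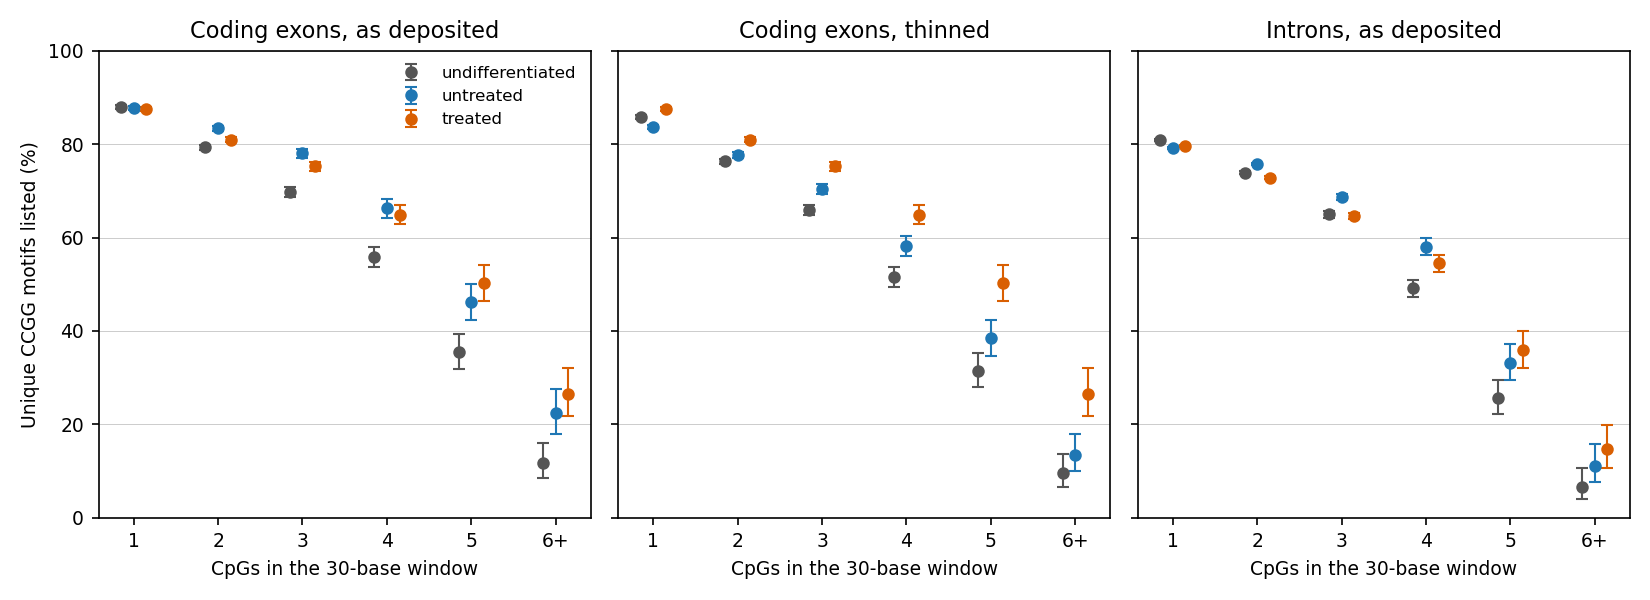
Percent of unique CCGG motifs listed in each library against the number of CpGs in the 30-base window, for coding exons as deposited, for coding exons after thinning to the same CCGG total, and for introns. Bars are 95% Wilson intervals. The shares drop from about 88% with 1 CpG to between 11.7% and 26.6% with 6 or more in coding exons, and the undifferentiated library is lowest from 2 CpGs upward in the left panel.

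Base composition moved with these values. In windows with over 72% GC, 50.8%, 65.1% and 67.8% of 7043 unique coding motifs were listed, compared with 88.7%, 88.2% and 85.8% of 19227 motifs in windows of 50 to 60% GC. Among windows with 1 CpG and over 72% GC the shares were still 67.9% (65.02 to 70.6), 78.4% (75.9 to 80.8) and 83.6% (81.2 to 85.7), so the libraries differed there too. Among windows with 2 or more CpGs and 50 to 60% GC they were 84.7%, 85.8% and 82.3%. A neighbouring motif moved with listing too, since 59.6%, 72.6% and 70.4% of the 9078 unique motifs with another CCGG within 32 bp were listed, compared with 84.4%, 85.4% and 84.3% of the rest. Among unique windows with 2 CpGs, 83.6%, 85.2% and 83.2% of the 15046 motifs without such a neighbour were listed. With a neighbour the shares were 61.3%, 75.5% and 71.8% of 3550. Thus the undifferentiated library was the lowest of the 3 only where a neighbour was present. The part of GC content and of neighbouring motifs in the differences between libraries was not tested.

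By the CpG content of the surrounding 500 bp, the same order was seen on a wider scale. Motifs in low CpG windows, in which CpGs are depleted, were listed at 83.3%, 85.4% and 83.7% of 43743 unique motifs. In intermediate windows the shares were 73.7%, 79.8% and 79.9% of 8528. In the 1525 motifs of high CpG windows, the class of CpG islands, they were 26.8% (24.6 to 29.0), 40.4% (38.0 to 42.9) and 42.7% (40.2 to 45.2), with medians of 10, 11 and 10 reads where listed. After thinning, the high class stood at 22.4%, 31.3% and 42.7%. Of the 3 classes, the high class was listed least often and had the widest gaps between libraries.

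The place of the motif in the reading frame also ordered the shares. CCGG read from the third codon position places CGG, an arginine codon, in frame, and 28973 motifs, the largest group, stood there. They were listed at 80.3%, 83.0% and 81.5%. Motifs that begin a codon and so hold the proline codon CCG, 13777 in number, were listed at 76.3%, 79.8% and 79.1%, and the 12386 motifs that begin at the second position at 75.7%, 79.3% and 78.3%. Among unique windows with 1 CpG the shares at the third position were 89.2%, 89.0% and 88.3%, compared with 86.6%, 86.4% and 86.8% at the first. Shares also differed by exon size and distance from the exon's edge. In exons of up to 150 bp 82.5%, 83.7% and 81.7% of the motifs were listed, in exons of 500 to 3000 bp 71.8%, 76.6% and 77.4%, in longer exons 74.3%, 79.2% and 78.2%, and more than 100 bp from the segment's edge 71.2%, 76.98% and 77.05%.

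At sites listed in all 3 libraries the reads of members moved little as a group. Log2 ratios were centred on the median of the 703057 autosomal CCGG sites listed in all 3. The median centred log2 ratio over the 37989 members was -0.02 in untreated against undifferentiated, -0.05 in treated against undifferentiated and -0.04 in treated against untreated. Last exons stood at 0.01, 0.00 and 0.01 and internal exons at -0.03, -0.07 and -0.05. The spread was much larger than these medians, since the middle 50% of members ran from -0.61 to 0.55, from -0.70 to 0.62 and from -0.45 to 0.42.

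Changes of 2-fold or more were counted at the 28232 members with at least 60 reads summed over the libraries, beside the same count over 526100 autosomal CCGG sites. In untreated against undifferentiated, 3280 members (11.6%) were higher, compared with 13.9% of all sites, and 3686 (13.1%) were lower, compared with 13.1%. In treated against undifferentiated, 3600 (12.8%) were higher, compared with 16.2%, and 4890 (17.3%) were lower, compared with 16.4%. In treated against untreated, 1235 (4.37%) were higher, compared with 5.35%, and 1672 (5.92%) were lower, compared with 5.43%. The shares of lower members were near those of all sites, and the shares of higher members were below them in all 3 comparisons. The exact 95% interval of a member's ratio, which covers counting error only, left out the common centre at 38.99%, 40.9% and 23.0% of the members, and at 40.8%, 43.0% and 23.4% of all sites. The scaling decided the balance of higher and lower. On the authors' RPM scale, without centring, 2100 members (7.44%) were higher and 5179 (18.3%) lower in untreated against undifferentiated, compared with 9.2% and 18.3% of all sites. In treated against undifferentiated the counts were 1425 (5.05%) and 11026 (39.1%), compared with 6.8% and 36.1%. In treated against untreated they were 425 (1.51%) and 4904 (17.4%), compared with 2.01% and 16%. The RPM scale moved the median of all sites by -0.24, -0.62 and -0.37 on the log2 scale.

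Sites gained or lost between lists were then counted. In the untreated library 4738 members (9.55%) were gained against the undifferentiated one and 3042 (6.13%) were lost. Over all listed autosomal sites the shares were 9.32% gained and 8.17% lost. In the treated library 4878 members (9.83%) were gained, compared with 11.8% of all sites, and 3860 (7.78%) were lost, compared with 9.78%. Gains outnumbered losses at this limit, but with at least 10 reads where listed the treated library had 2211 gains and 2230 losses. The shares over all sites at 10 reads are not given here, so whether this is particular to members is not known. Gained members were shallow, with a median of 9 reads in either library, and the motif was the only CpG of its window in 28.9% and 32.5% of them, compared with 47.7% of all members. Over all autosomal sites these shares were 51.1% and 54.997% of the gained sites and 68.7% of every listed site. Of the members with 5 to 9 reads at day 0, 22.6% were unlisted in the untreated library, and of those with 40 reads or more 0.870%, compared with 29.4% and 1.10% of all sites. In the other direction, 40.4% of the members with 5 to 9 untreated reads were unlisted in the undifferentiated library, compared with 39.5% of all sites. With 40 or more untreated reads these shares were 0.240% and 0.308%. Between the day 7 libraries, 0.0327% of the members with 40 or more untreated reads were unlisted in the treated library, compared with 0.0328% of all sites.

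A few deep sites nevertheless appeared or vanished between day 0 and day 7. Among the members unlisted in the undifferentiated library, the 6 with most reads in both day 7 libraries are given first. Pkdrej, a receptor-like gene of sperm, had 73 untreated and 52 treated reads at its site. Glmn had 71 and 52, Cnga1, a subunit of the rod photoreceptor channel, had 51 and 52, and Pdzd8, a protein of membrane contact sites, had 76 and 48. Dst, the cytoskeletal linker dystonin, had 47 and 68, and Msh3, a mismatch repair gene, had 43 and 45. Other CCGG sites within 25 kb were listed in the undifferentiated library with medians of 15 to 33 reads.

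The 6 members with most day 0 reads and none listed at day 7 had 79 to 87 reads in the undifferentiated library. Dync2h1 had 87 reads there. Dgcr2, a gene of the region deleted in DiGeorge syndrome, Zfp180, a zinc finger gene, and Myo7a, an unconventional myosin of hair cells, had 85 each. Wdr64, a WD repeat gene, had 84 and Pdcd4, an inhibitor of translation, had 79. Sites within 25 kb had medians of 16.5 to 57.5 reads in the untreated library and 17 to 41.5 in the treated one.

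The windows of these gained and lost sites, other than those of Glmn and Dync2h1 printed above, held 1 or 2 CpGs and are shown for 3 sites of each kind.
Pkdrej (gained, chr15:85816755-85816784): cccaacattccttCCGGacagctcttctaa
Cnga1 (gained, chr5:72604960-72604989): atatgaatgcagcCCGGgcagaatttcaat
Dst (gained, chr1:33968836-33968865): tcaagaaaaacagCCGGgtgcagccagaat
Myo7a (lost, chr7:98066353-98066382): ggagctgtccttcCCGGagatcatggctgt
Zfp180 (lost, chr7:24105586-24105615): cagaggactcacaCCGGcgagaagcccttc
Pdcd4 (lost, chr19:53919647-53919676): gaagagtggcgtgCCGGtgttggcagtgtc

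The 6 members with the most reads summed over the libraries lay in 4 genes. At chr11:3135684-3135687, in an internal exon of Sfi1, 1245, 1895 and 1484 reads were counted, and 28 other sites within 25 kb had medians of 90.5, 80 and 78.5 reads, above the member medians of 29, 31 and 23. A second Sfi1 site had 213, 303 and 164 reads. A site of St6galnac1, a sialyltransferase gene, had 582, 659 and 316 reads. It was the only listed one of 4 motifs in that gene, and 3 of the 4 windows are repeated in the genome. A pair of sites in Mroh2a, a gene of HEAT repeats, had 243, 348 and 200 reads and 228, 343 and 207 reads, and Wars2, the mitochondrial tryptophanyl-tRNA synthetase, had a site with 148, 280 and 145. At these sites the copy number of the sequence was not measured.

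Ttn, which encodes titin, the elastic filament of the sarcomere, had 173 listed sites of 190 motifs, between chr2:76709509 and 76975077. Of these sites 151, 152 and 145 were listed with 6505, 6657 and 4369 reads and medians of 35, 32 and 23. In its largest coding segment, of 17106 bp, 23, 26 and 22 of 31 motifs were listed. The centred log2 ratio of its summed reads was -0.26 in untreated (95% interval, -0.31 to -0.21) and -0.35 in treated cells (-0.41 to -0.30), both against undifferentiated cells. Ttn had 91.1% of its motifs listed in at least 1 library, compared with 90.02% of all coding motifs.

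**Figure D4:**
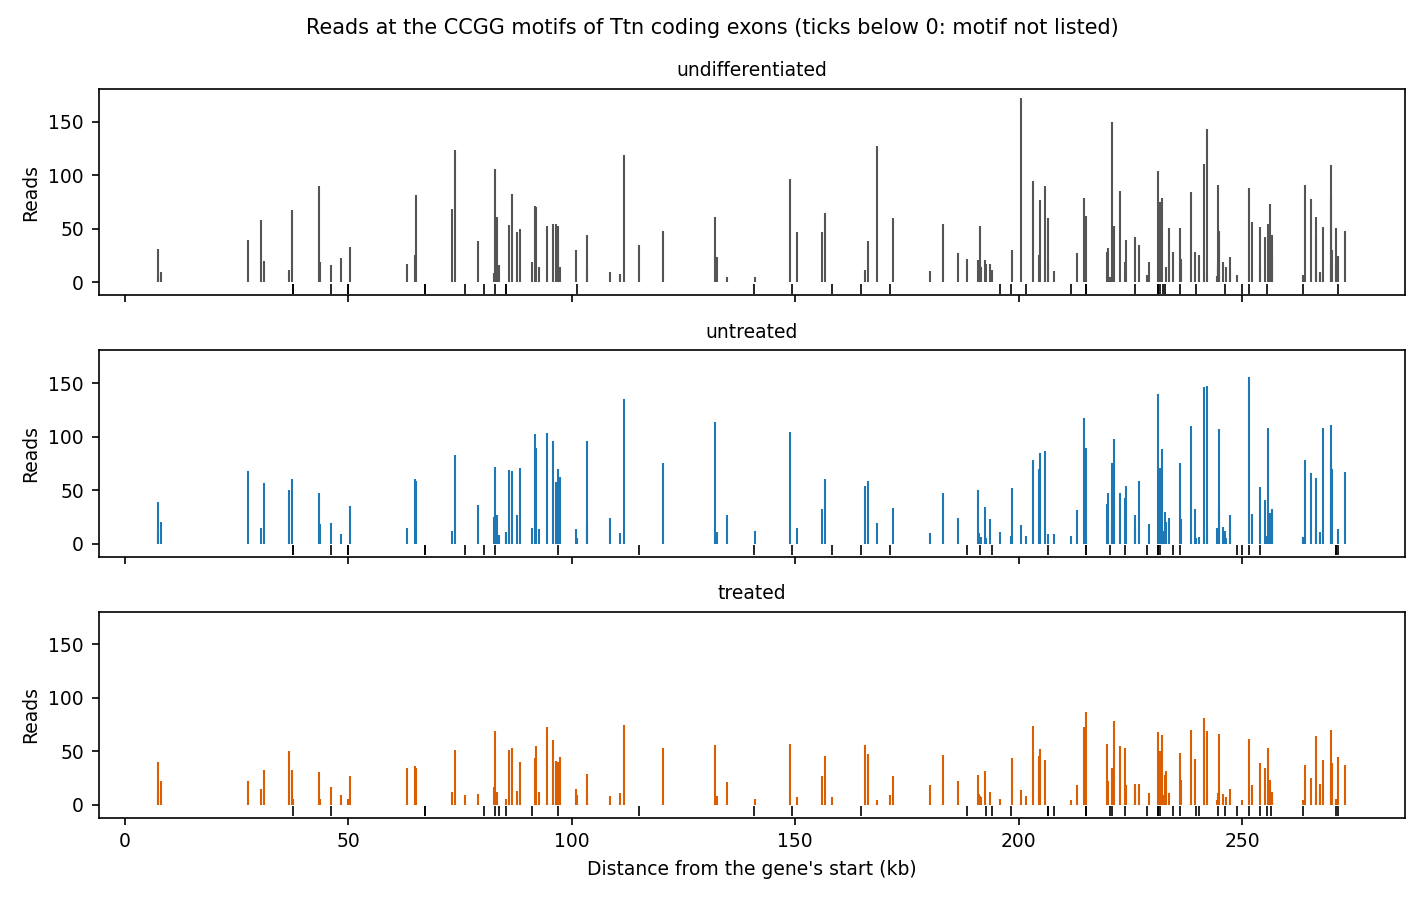
Reads at each of the 190 CCGG motifs in the coding exons of Ttn against distance from the gene's start, in each library. Lines are read counts as deposited and ticks below 0 mark unlisted motifs, which are spread along the gene. The 3 libraries list 151, 152 and 145 of these motifs.

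Plec, the cytolinker plectin, had 62 listed sites with 1817, 2316 and 1426 reads. Lrp1, an endocytic receptor, had all of its 61 motifs listed, with 1694, 1647 and 1183 reads. Hmcn2, an extracellular hemicentin, had 56 sites, and Hspg2, the basement membrane proteoglycan perlecan, 54. Speg, a kinase of striated muscle, had 54 sites, Ryr1, the calcium release channel of skeletal muscle, 51, Csmd2, a membrane protein with CUB and sushi domains, 49, and Kmt2d, a histone H3 lysine 4 methyltransferase, 48. In these 9 genes the centred log2 ratio of summed reads lay between -0.33 (Lrp1) and 0.06 (Plec) in untreated against undifferentiated cells, and none passed 1.5-fold in any comparison.

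Counted by gene, 1096 genes had at least 10 members, with a median of 13. In untreated against undifferentiated, summed reads were at least 1.5-fold higher in 36 genes (3.28%) and lower in 51 (4.65%). The same rule on the intron sites of 6921 genes gave 0.448% and 2.75%. In treated against undifferentiated, 61 genes (5.57%) were higher and 78 (7.12%) lower, compared with 1.26% and 4.13% by introns. With unlisted sites at 4 reads, 25 genes were higher and 45 lower in untreated against undifferentiated. In treated against undifferentiated 49 were then higher and 71 lower. In treated against untreated, 24 (2.19%) were higher and 9 (0.821%) lower, compared with 0.694% and 0.173%. These last counts were small and unsteady, with 15 genes higher when 300 reads were required and 3 lower with unlisted sites at 4 reads. Intron sets were larger, with a median of 24 sites. With both limited to genes of 10 to 20 sites, 3.81% of genes by coding exons and 0.945% by introns were higher in untreated against undifferentiated cells, and 5.45% and 5.501% were lower. In treated against undifferentiated cells 6.21% and 2.67% were higher, and 8.06% and 8.10% lower.

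The genes that stood higher were rich in CpGs. In the 36 genes higher in untreated cells 24.1% of the motifs were the only CpG of their window, and in the 61 higher in treated cells 26.6%, compared with 42.0% in all 1096 genes. They were also shallow, with medians of 632.5 and 580 reads summed over the libraries, compared with 1225.5. In the genes that stood lower in untreated and in treated cells 42.9% and 42.1% of the motifs were alone in their window, and their medians were 898 and 1144 reads.

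Dmrta2, a DM domain transcription factor of the developing cortex, was seen at day 7 only. None of its 20 motifs, all in the last exon and 19 of them in high CpG windows, was listed in the undifferentiated library. In the untreated library 6 were listed with 46 reads in all, and in the treated library 10 with 97 reads. Since 12 unlisted sites could hold up to 4 reads each, no fold change is given against that library. Treated against untreated cells stood at a log2 ratio of 1.58 (95% interval, 1.06 to 2.12), and at 0.97 if every unlisted untreated site had held 4 reads.

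Tbx2, a T-box transcriptional repressor of heart and limb development, had 31, 89 and 170 reads at 12 sites, of which 5, 7 and 12 were listed. Its log2 ratio was 2.68 in treated against undifferentiated cells (2.12 to 3.28), or 1.75 with the unlisted undifferentiated sites at 4 reads. The site printed above had no listed reads at day 0 or in untreated cells and 22 in treated cells. Jph2, which encodes junctophilin 2 of cardiac muscle, had 41, 135 and 174 reads, and only 2 of its 16 sites were listed in undifferentiated cells, compared with 12 in both other libraries. Its log2 ratio in treated against undifferentiated cells was 2.31 (1.81 to 2.84), or 1.07 with only the unlisted undifferentiated sites at 4 reads. All 20 of its motifs lay in high CpG windows. Skor2, a corepressor of Purkinje cells, had 25, 47 and 95 reads, with 2, 6 and 9 of 11 sites listed. Its ratio in untreated against undifferentiated cells was 0.62, and -0.15 with the unlisted sites of both libraries at 4 reads.

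A set of 3 zinc finger genes was among the highest. Zfp865 had 32, 158 and 97 reads at 15 sites, with a log2 ratio of 2.01 in untreated against undifferentiated cells (1.46 to 2.61), or 0.77 with only the unlisted undifferentiated sites at 4 reads. Zfp316 had 38, 137 and 134 reads, and its ratio in untreated cells was 1.56, or 0.45 with only the unlisted undifferentiated sites at 4 reads. Zscan2 had 37, 131 and 110 reads, with ratios of 1.53 and 0.64 counted in the same 2 ways. Ssh1, a phosphatase that activates cofilin, had no motif in a high CpG window, 93, 303 and 143 reads, and a log2 ratio of 1.41 in untreated (1.07 to 1.77) and 0.84 in treated cells (0.46 to 1.24).

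**Figure D5:**
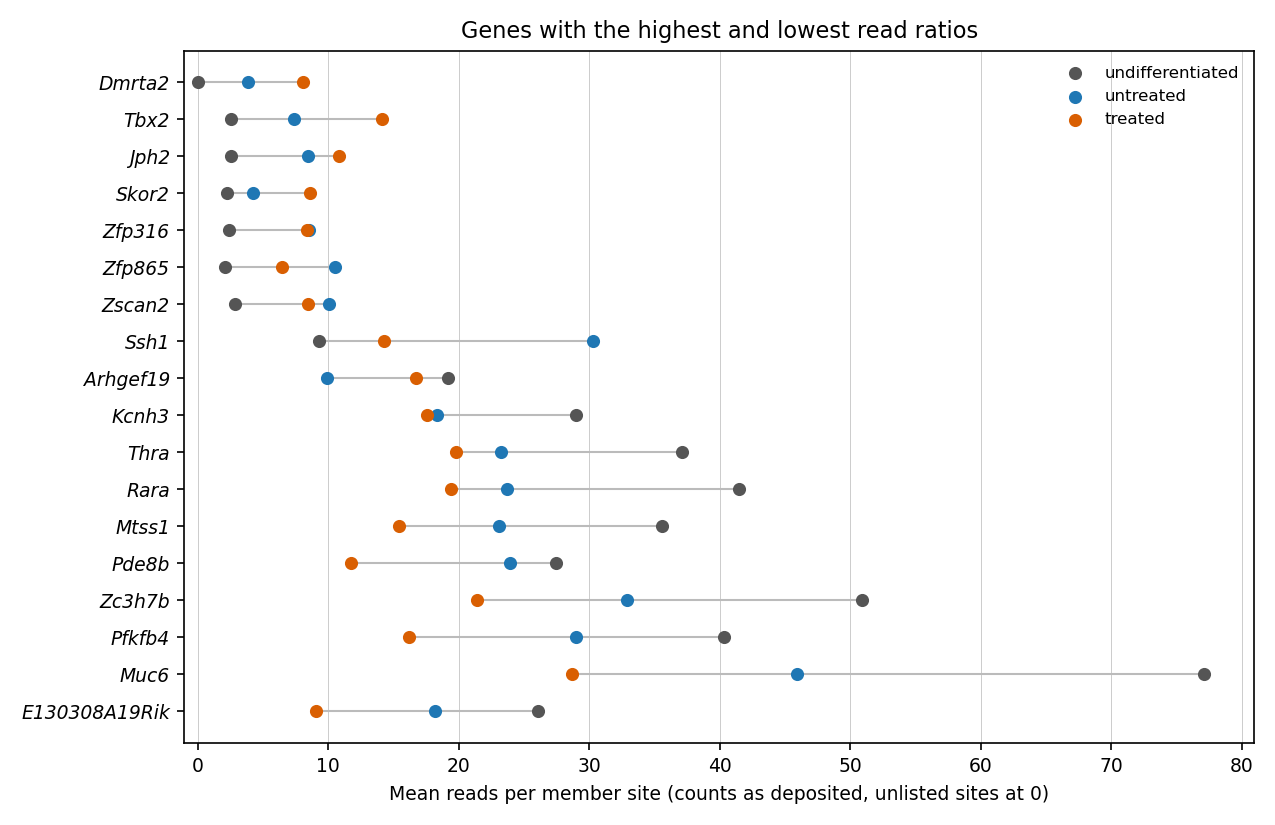
Mean reads per member site in each library (counts as deposited, unlisted sites at 0) for 18 genes, those with the 6 highest and 6 lowest ratios in untreated or in treated against undifferentiated cells, with no scaling for library depth. The 8 upper genes have their lowest point in the undifferentiated library, below 10 reads per site, and the 10 lower genes their highest.

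Among the lowest were the genes of a pair of nuclear receptors. Rara encodes the retinoic acid receptor alpha, through which retinoic acid acts, and Thra the thyroid hormone receptor alpha. All 10 sites of Rara were listed in each library, with 415, 237 and 194 reads, and its log2 ratio was -1.10 in untreated (-1.33 to -0.86) and -0.87 in treated against undifferentiated cells (-1.13 to -0.63). The fall was not even along the gene. The site at chr11:98970602-98970605 went from 94 reads to 12 and 8 and that at chr11:98971653-98971656 from 62 to 8 and 12, while 38 and 21 reads were seen at chr11:98968146-98968149 against 13 before. Thra had 408, 256 and 218 reads and log2 ratios of -0.96 (-1.19 to -0.73) and -0.68 (-0.93 to -0.44). Its site at chr11:98756983-98756986 went from 104 reads to 11 and 10, and that at chr11:98761773-98761776 from 53 to 7 in each.

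Muc6, a gastric mucin, had 771, 459 and 287 reads at 10 sites and log2 ratios of -1.04 (-1.21 to -0.87) and -1.20 (-1.40 to -1.01). Zc3h7b, a CCCH zinc finger gene, had 764, 493 and 321 reads, with -0.92 and -1.03. Kcnh3, a brain potassium channel, had 348, 220 and 211 reads. Arhgef19, a guanine nucleotide exchange factor gene, had 192, 99 and 167 reads, with log2 ratios of -1.25 in untreated and 0.02 in treated against undifferentiated cells. In treated against undifferentiated cells the lowest genes besides Muc6 and Zc3h7b were E130308A19Rik with 287, 200 and 100 reads, Pfkfb4, a regulator of glycolysis, with 403, 290 and 162, Pde8b, a phosphodiesterase of cyclic AMP, with 330, 287 and 141, and Mtss1, an actin-binding protein, with 391, 254 and 170. In treated against untreated cells Bcl11b, a transcription factor of T cells and neurons, was lowest with 133 and 49 reads, at a log2 ratio of -0.94, or -0.14 with its unlisted treated sites at 4 reads. Zfp444 had 182 and 68, Mink1, a kinase, 202 and 89, and Arfgef3, a gene of the Arf exchange factor family, 435 and 195. The highest there were Dmrta2, Skor2, Tbx2 and Arhgef19.

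The 6 genes with the lowest listed share were taken among those with at least 20 unique motifs. Prdm13, a transcription factor of spinal cord neurons, had 7 of 31 unique motifs listed in any library, with 0, 6 and 39 reads. Zfp503, a zinc finger gene of the developing striatum, had 6 of 24, with 0, 5 and 45 reads. Otud7a, a deubiquitinase, had 8 of 22, Skor2 11 of 21, and Foxo6, a forkhead factor of the brain, 13 of 24. Cacna1a, the pore of the P/Q calcium channel, had 17 of 32. The motifs in high CpG windows numbered 31 of 31 in Prdm13, 18 of 24 in Foxo6, 16 of 22 in Otud7a, 15 of 24 in Zfp503, 11 of 21 in Skor2 and 8 of 32 in Cacna1a. Prdm13 and Zfp503 had 6 listed sites each in the treated library, 1 each in the untreated and none in the undifferentiated library. Those treated sites held 5 to 8 reads in Prdm13 and 5 to 13 in Zfp503, close to the limit. With the unlisted ones of its 7 sites at 4 reads, Prdm13 would have had 28, 30 and 43 reads.

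Gene families were described by their counts beside those of all coding motifs, of which 78.3%, 81.4% and 80.1% were listed and whose median ratios were -0.02 in untreated and -0.05 in treated against undifferentiated cells. The 42 collagens held 828 motifs, listed at 77.2%, 82.6% and 81.9%, and their median log2 ratios were 0.11 and 0.15. Of all 1096 genes with at least 10 members, 3.28% were higher and 4.65% lower by 1.5-fold in untreated cells, and 5.57% and 7.12% in treated cells. Of the 33 collagens with at least 10 members, 1 was higher and 2 lower by 1.5-fold in untreated cells, and 4 were higher and none lower in treated cells. Col16a1 had 37 sites, Col4a1 35 and Col11a2 33. The 6 fibrillins and LTBPs, which build microfibrils, stood at 0.16 and 0.35, with 1 gene higher in untreated cells. Fbn2 had 553, 1148 and 670 reads, and Fbn1 and Ltbp4 had 28 and 35 sites. The 11 laminins, listed at 82.5%, 88.1% and 81.4%, stood at 0.05 and -0.18, with Lama5, Lama1 and Lama2 holding 32, 31 and 23 sites.

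The 6 LDL receptor family genes had median ratios of -0.26 and -0.39, with 1 gene at least 1.5-fold lower in treated cells, and Lrp2 and Lrp4 had 24 and 18 sites. The 7 plexins, receptors of semaphorins, stood at -0.09 and -0.33, with 2 of the 6 genes of at least 10 members at least 1.5-fold lower in treated cells, and Plxnb1, Plxna4 and Plxna2 had 19, 17 and 12 sites. The 9 atypical cadherins stood at -0.10 and -0.21, with 1 gene lower in treated cells, led by Celsr1, Fat2 and Fat1 with 30, 22 and 20 sites. The 6 ryanodine and IP3 receptors stood at -0.03 and -0.21, with 1 gene lower in treated cells, with Ryr2 at 27 and Itpr1 at 22 sites. The 9 calcium channel subunits stood at -0.12 and -0.14 and were listed at 72.7%, 79.6% and 78.7%, with 30 sites in Cacna1g, 29 in Cacna1i and 28 in Cacna1b. All 74 motifs of the 4 Notch receptors were listed in at least 1 library, with ratios of -0.0047 and -0.10, and Notch3, Notch2 and Notch1 had 32, 16 and 15 sites.

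The 12 lysine methyltransferases stood at 0.15 and -0.11, with Setd1b and Kmt2a at 28 and 27 sites, and the 9 chromodomain helicases at -0.13 and -0.16, with Chd7, Chd5 and Chd3 at 19, 18 and 12. None of the 5 methyltransferases and 7 helicases with at least 10 members passed 1.5-fold against undifferentiated cells. The 12 axonemal dynein heavy chains, listed at 84.0%, 85.7% and 85.3%, stood at 0.01 and -0.11, with 40 sites in Dnah10, 35 in Dnah2 and 34 in Dnah17. The 223 numbered zinc finger genes, with 64.4% of their motifs in last exons, were listed at 73.9%, 75.7% and 75.1%, and their median ratios were 0.03 and 0.03. Of the 25 with at least 10 members, led by Zfp536 with 21 and Zfp64 with 19 sites, 6 were higher and 1 lower in untreated cells, and 7 higher and 2 lower in treated cells, beside the shares of all 1096 genes given above.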

How the data were processed

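The authors digested DNA with FspEI, excised fragments of about 30 bp and sequenced 1 library per condition. Per the labels' processing notes, FastQC 0.11.3 and Bowtie2 2.3.3 were used with build GRCm38, and per the study's methods at most 1 mismatch was allowed and uniquely mapped reads were kept. The deposited tables give, per site with at least 5 reads, a raw read count and the authors' RPM value. Counts were used here, and RPM only as an alternative scaling.

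CCGG motifs were located in GRCm38 and joined by position to sites of alignment class M. Exon position, reading frame and start sites came from GENCODE M21 basic, with 77198 start sites. Motifs only partly inside a coding segment (1580) were left out. Windows were 30 bases, and CpG classes used 500 bp windows overlapping by 5, with high at a CpG ratio over 0.75 and GC over 55% and low at a ratio under 0.48. Shares carry 95% Wilson intervals, and gene ratios exact binomial intervals. No test was possible with 1 library per condition. Unlisted sites counted as 0 in gene sums.

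Named genes were the 10 with most sites (1 is not reported here), those with the highest and lowest ratios (6 each, 4 each between day 7 libraries) among genes with 10 sites, the 6 with the lowest listed share among genes with 20 unique motifs, the 6 deepest sites, the 3 leading genes of each family, and the 6 largest gains and losses. Members and lists were chosen with earlier results of these data known. Steps were tested on simulated data and run in Python 3.11.15 with numpy 2.4.6, pandas 2.3.3 and SciPy 1.17.1.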

Additional observations from a re-analysis of the deposited data

Results flagged for a closer look

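CCAGG sites lie outside the comparisons above, because FspEI also cuts at methylated CCWGG and the report used CCGG only. In the same coding exons more than 3 kb from start sites, 35306 CCAGG sites were listed in the treated library. This compares with 17344 in both the undifferentiated and the untreated library. CCTGG sites, in contrast, numbered 17558, 17556 and 17560 in the undifferentiated, untreated and treated libraries. The treated excess was singled out because its value lies above that of the undifferentiated cells. It differs from the paper's genome-wide site counts, in which the untreated library had more CCWGG sites than the treated one. Over all motifs the deposited tables hold 1408466 undifferentiated, 1421071 untreated and 2055181 treated sites. The CCAGG reads were 310105 in the undifferentiated and 310107 in the untreated library, against 591591 in the treated one, and the CCTGG reads were 312355, 312301 and 312456, although the CCGG totals of these libraries differed widely. How the treated table came to hold more CCAGG sites was not tested.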

How the results depend on the processing

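No paired analysis was possible because each condition has 1 library. Restricting to sites with at least 10 reads gave listed shares of 66.7%, 69.5% and 66.1% (undifferentiated, untreated, treated, the order used throughout) and medians of 34, 38 and 28 reads, with ratio medians of -0.036 (untreated) and -0.068 (treated) against undifferentiated cells. Gains were 2082 and 2211 and losses 1599 and 2230 in the untreated and treated libraries, without the shares over all autosomal sites at this limit. Thinning gave 75.5% and 76.1% in the first 2 libraries and medians of 24 and 24. Unique windows gave 80.2%, 83.2% and 82.0%, internal less last exons of 7.72, 5.41 and 3.86 points, and long less short genes of 3.72, 2.25 and 0.506 points, where the values over all motifs were 5.84, 4.36 and 2.64. Splitting genes at the median length gave 4.40 points in the undifferentiated library. Over 1 kb from start sites the shares were 75.8%, 79.6% and 78.9%, the first 2 medians 28 and 30, and the treated against untreated ratio -0.030. Over 10 kb they were 80.1%, 82.8% and 81.1%, with medians of 30, 32 and 24 and ratios of -0.067 (treated against undifferentiated) and -0.057 (treated against untreated). Without centring, RPM gave ratio medians of -0.26, -0.68 and -0.41 (untreated against undifferentiated, treated against undifferentiated, treated against untreated), 2100, 1425 and 425 members higher, and 11026 and 4904 lower in the latter 2 comparisons. Scaling to the CCGG total gave 0.067 and 0.031 against undifferentiated cells, so the sign of these small medians depends on the scaling. With at least 150 reads summed, 873, 681 and 42 members were higher and 718, 1513 and 493 lower, from fewer sites. The number of members tested and the shares over all autosomal sites at this limit are not given here. In untreated against undifferentiated cells higher members then outnumbered lower ones, whereas the limit used above gave 3280 higher and 3686 lower. Alternatives chosen after seeing the data were these. Windows with 1 CpG, repeated windows included, gave shares of 85.3%, 85.3% and 85.1% and ratios of -0.0065, -0.023 and -0.018. Genes with at least 300 reads gave 15 higher in treated against untreated cells. Counting unlisted sites at 4 reads gave 3 genes lower in treated against untreated cells and turned the Skor2 ratio of untreated against undifferentiated cells from 0.62 to -0.15. It kept 40 of 49 named gene ratios past 1.5-fold, RPM kept 42, and leaving out each gene's deepest site kept 44. Of all 211 named gene ratios, however, RPM without centring left 24 the same and moved 187. Each of the other alternatives left 195 the same. Depth limits sites near 5 reads most.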
